A study of Mus musculus with 3 samples.

Results

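The cell cycle and mitosis genes are 42 genes chosen by symbol, from the cyclins and their kinases to replication, spindle and checkpoint genes. Of these, 40 had a probe set with a single gene symbol on the array, out of 19937 genes in the series with one. Ccnb1 had no probe set listed and Cdkn1a lay on a probe set shared with another symbol, so neither is given a value here. When a cell commits to divide, D-type and E-type cyclins switch on their kinases, the Rb protein releases E2F factors, and the genes for DNA replication are transcribed. A later wave of transcription through the MuvB complexes and Foxm1 supplies cyclin B, the mitotic kinases and the spindle proteins, and the anaphase-promoting complex then destroys many of these proteins. In the thymic medulla, immature epithelial cells and a cycling intermediate that already expresses Aire divide, while most mature Aire-expressing cells are held to be post-mitotic.

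The series holds 3 libraries of sorted medullary thymic epithelial cells (mTEC) with high MHC class II, EpCAM present, CD45 absent and low Ly51, from C57b/6 mice aged 6 weeks. The AireKO library came from Aire–/– mice, which lack the regulator of peripheral antigen expression. The Sirt1cKO library came from Sirt1fl/fl Foxn1-Cre mice, in which Cre is driven by the thymic epithelial gene Foxn1 and removes the deacetylase gene Sirt1 in that lineage. The WT library came from Sirt1fl/fl mice without Cre, so both Sirt1 groups carry the floxed allele, while the labels give none for AireKO. Typically 3 mice were pooled for one sort of 30000 to 60000 cells. With 1 library per genotype there is no replicate check and no test, and a difference below sets 1 library against another. The precision of the values is limited by how few arrays there are.

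All values are log2 probe-set intensities, and differences are in log2 units, where 1 is 2-fold. A value was treated as within background when it did not exceed the 95th percentile of olfactory receptor genes in its library, which was 6.89 in AireKO, 6.34 in Sirt1cKO and 6.02 in WT. A gene counts as measured when its mean over the 3 libraries reached 7.18, the median of all gene values, which 9992 genes did, 34 of the 40 among them. The libraries were labelled by title, because the free-text descriptions of AireKO and Sirt1cKO name each other's genotype. Aire stood at 11.55, 11.24 and 11.97 in AireKO, Sirt1cKO and WT, and Sirt1 at 11.42, 11.27 and 11.40, so neither probe set singles out its knockout; the probe sets need not cover the deleted part. The libraries also differed in sex-linked RNA, with Xist at 6.75, 11.46 and 12.17 and the Y-linked Eif2s3y at 9.75, 8.92 and 4.23 in the same order. The class II gene H2-Ea, which C57BL/6 mice are known not to express, stood at 13.23 in AireKO, against 5.90 in Sirt1cKO and 5.60 in WT, both within background, so the AireKO library went against the strain its labels give. Genotype, sex-linked RNA and the strain background that H2-Ea reflects cannot be told apart in any AireKO difference, nor genotype and sex-linked RNA in Sirt1cKO against WT. All 10 mature medullary markers, among them Epcam and Cd80, were above background in every library.

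The first question was whether cell cycle genes differed in cells without Aire. In AireKO most stayed within 1.5-fold of WT, with Ccnd2, Ccnd3, Cdkn1b, Rrm2 and Tyms below that range and Nusap1, Cdkn2c and Ccne2 above it. Of the 34 measured members, 2 were at least 2-fold lower and 0 higher, which is 5.88% and 0%, against 9.24% and 2.16% of all measured genes. At 1.5-fold, 5 were lower and 3 higher, against 25.8% and 7.06% of all measured genes. The shares of members were 14.7% and 8.82%. After rescaling by a loess fit on brightness 2 were lower and 3 higher at 1.5-fold, or 5.88% and 8.82%, against 15.0% and 13.2% of all measured genes, as Cdkn1b, Rrm2 and Tyms no longer passed. The median difference of the members was -0.12, with a middle range of -0.44 to 0.04. All measured genes had a median of -0.24 and a middle range of -0.60 to 0.11.

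The offset of all genes was part of every AireKO value. It moved by 0.24 under quantile normalization, by 0.23 under the loess fit and by 0.30 under median centring. Under these scalings no member was 2-fold lower, 1 was 2-fold higher, and the members' median was 0.11, 0.09 and 0.18. The split of all measured genes at 2-fold in AireKO against WT also moved, to 5.26% lower and 4.2% higher by quantile normalization, 5.11% and 4.14% by loess and 4.41% and 5.04% by centring. In Sirt1cKO against WT it became 1.06% and 1.07%, 1.12% and 1.03%, and 1.05% and 1.12%, and in AireKO against Sirt1cKO 2.25% and 1.31%, 1.97% and 1.29%, and 1.78% and 1.56%, in the same order of scalings. Below, a range over scalings covers the deposited values and these alternatives. In AireKO minus WT 12 of 40 members changed sign within that range, and in Sirt1cKO minus WT 4 did. Sign changes were not counted over all genes.

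The second question was whether they differed after loss of Sirt1 in thymic epithelium. No measured member reached 2-fold in Sirt1cKO against WT, where 1.58% of all measured genes were lower and 0.831% higher. At 1.5-fold, 2 members were lower and 2 higher, each 5.88% of the members, against 8.5% and 4.14% of all measured genes. The members' median was -0.01, beside -0.08 for all measured genes. After loess, 1 member was lower and 5 were higher at 1.5-fold, or 2.94% and 14.7%, against 6.16% and 5.65% of all measured genes.

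**Figure D1:**
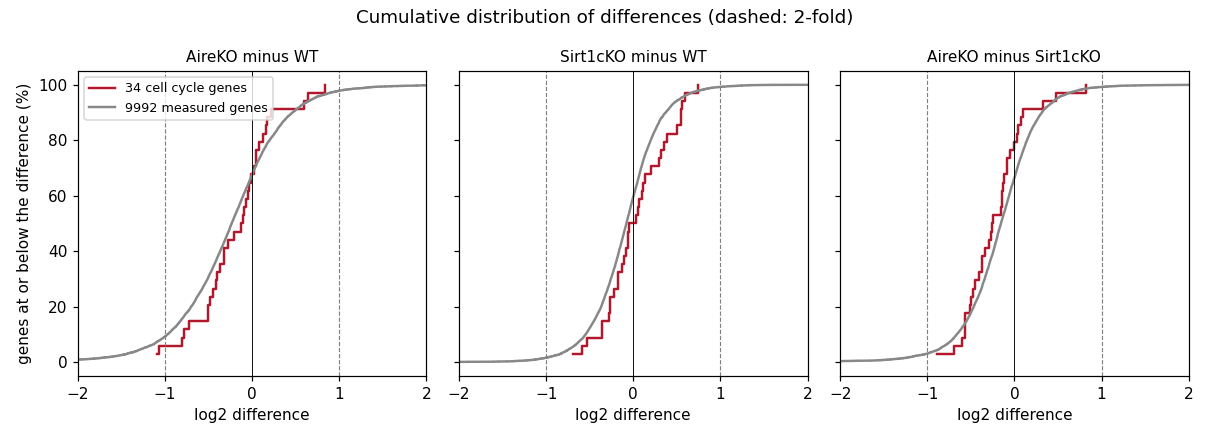
Cumulative share of genes (vertical axis, percent) at or below each log2 difference (horizontal axis) for the 34 measured cell cycle and mitosis genes and all 9992 measured genes, in 3 pairs of libraries. The members' curve stays between -1.09 and 0.84 in AireKO minus WT and between -0.69 and 0.74 in Sirt1cKO minus WT.

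Among the G1 cyclins, which carry mitogenic signals to the cell cycle, Ccnd2 and Ccnd3 stood apart from Ccnd1. Ccnd2 had 10.73 in AireKO, 11.21 in Sirt1cKO and 11.80 in WT. The AireKO value was 2.10-fold below WT, a difference of -1.07 that ranged to -0.77 over scalings, and the Sirt1cKO difference was -0.59. Ccnd3 stood at 7.30, 7.70 and 8.39 in the same order, with differences of -1.09 in AireKO, ranging to -0.79, and -0.69 in Sirt1cKO. Both genes were thus highest in WT and lowest in AireKO, and they were lower in each knockout library under every scaling, though among the scalings they were 2-fold lower in AireKO only on the deposited one. Ccnd1, the third D-type cyclin, stood at 8.81, 8.94 and 8.65, a little above WT in both knockout libraries.

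The E-type cyclins, which partner Cdk2 at the entry to S phase, did not follow Ccnd2 and Ccnd3. Ccne2 had 7.57 in AireKO, 7.54 in Sirt1cKO and 6.97 in WT, so it was higher in both knockout libraries, by 0.60 and 0.56. Ccne1 had 8.03, 7.55 and 7.81, above WT in AireKO and below it in Sirt1cKO under every scaling. Their kinase gene Cdk2 stood at 7.48, 8.05 and 7.98, lower in AireKO by -0.50, ranging to -0.21. The kinases of the D-type cyclins moved little. Cdk4 was at 11.29, 11.34 and 11.39, with a sign that changed with the scaling in both comparisons with WT, and Cdk6 was at 8.03, 8.28 and 8.41, below WT in both.

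The Cip/Kip and Ink4 inhibitors hold these kinases in check and are high in many resting cells. Cdkn1b, which encodes p27, stood at 8.96 in AireKO, 9.66 in Sirt1cKO and 9.77 in WT. It was lower in AireKO by -0.81, ranging to -0.51 over scalings, while Sirt1cKO differed by -0.11. A second, dimmer probe set of Cdkn1b read 5.65, within background, 6.57 and 7.42, and so ran in the same order. Cdkn2c, which encodes p18, ran the other way, with 8.52 in AireKO, 7.70 in Sirt1cKO and 7.88 in WT. Its AireKO difference of 0.65 was the second largest increase among the measured members.

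Ccnd3 and Cdkn1b had some of the largest differences in AireKO, so the bases just before their annotated starts are printed, from RefSeq on GRCm38.p6. Capitals mark a CCAAT box on either strand. The Ccnd3 window is chr17:47504851-47505050 on the plus strand and the Cdkn1b window is chr6:134920201-134920400 on the plus strand.
Ccnd3: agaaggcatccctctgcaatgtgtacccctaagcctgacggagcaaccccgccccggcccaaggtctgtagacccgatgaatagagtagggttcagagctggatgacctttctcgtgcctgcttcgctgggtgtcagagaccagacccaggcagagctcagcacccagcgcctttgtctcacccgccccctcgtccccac
Cdkn1b: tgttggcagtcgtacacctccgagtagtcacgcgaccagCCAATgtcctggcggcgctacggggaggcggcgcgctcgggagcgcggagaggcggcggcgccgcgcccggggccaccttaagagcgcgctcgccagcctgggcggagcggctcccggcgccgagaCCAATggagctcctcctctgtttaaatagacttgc
None of the letters searched occurs in the Ccnd3 window, and CCAAT occurs 2 times in the Cdkn1b window.

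**Figure D2:**
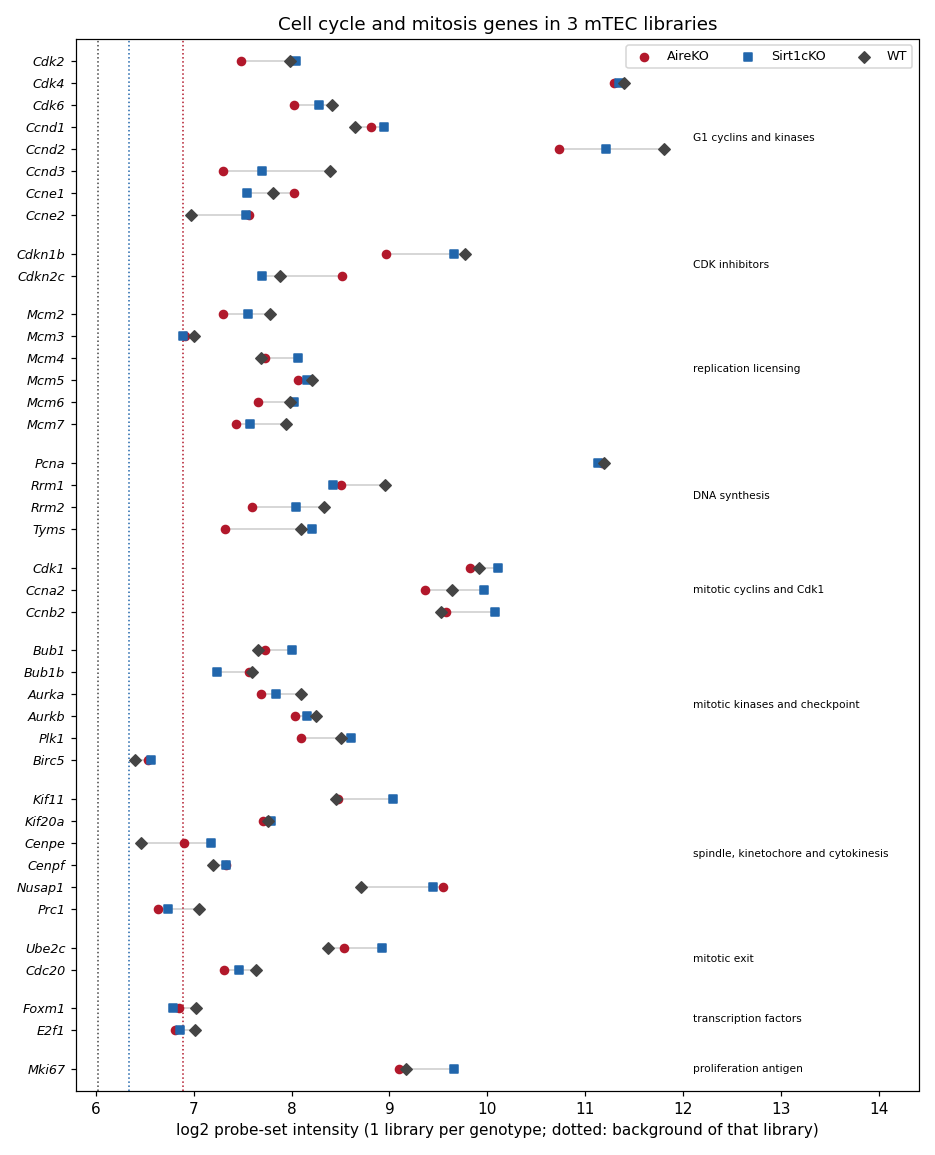
Log2 probe-set intensity (horizontal axis) of the 40 cell cycle and mitosis genes in the AireKO, Sirt1cKO and WT libraries, 1 point per library, grouped by role, with each library's background as a dotted line. The widest gaps between libraries are seen for Ccnd2, Ccnd3, Tyms, Nusap1, Cdkn2c and Cdkn1b, and levels of different genes are not comparable because each has its own probes.

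The licensing genes encode the hexameric MCM helicase that is loaded on replication origins in G1. None reached 1.5-fold in any pair of libraries. Mcm2 stood at 7.30 in AireKO, 7.56 in Sirt1cKO and 7.78 in WT, and Mcm7 at 7.43, 7.58 and 7.94, both lower in each knockout library under every scaling. Mcm6 was at 7.66, 8.03 and 7.98, and Mcm4 at 7.73, 8.07 and 7.69, so that Mcm4 was highest in Sirt1cKO. Mcm5, at 8.07, 8.16 and 8.21, changed sign with the scaling in both comparisons with WT. Mcm3, at 6.91, 6.89 and 7.0, lay near background in AireKO and did not pass the filter. Over the 5 measured licensing genes the median difference was -0.32 in AireKO, or -0.09 after loess, and -0.05 in Sirt1cKO.

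The DNA synthesis genes were split. Tyms, the thymidylate synthase gene, stood at 7.32 in AireKO, 8.21 in Sirt1cKO and 8.10 in WT, lower in AireKO by -0.78, ranging to -0.48. Rrm2, the cell-cycle-regulated subunit of ribonucleotide reductase, stood at 7.60, 8.05 and 8.33, lower in AireKO by -0.72, ranging to -0.43. Rrm1, the large subunit, stood at 8.50, 8.42 and 8.95, lower in both knockout libraries under every scaling, by -0.45 in AireKO and -0.53 in Sirt1cKO. None of these 3 reached 2-fold, and after loess none reached 1.5-fold in AireKO, with differences of -0.55 for Tyms, -0.48 for Rrm2 and -0.17 for Rrm1. The Tyms difference in Sirt1cKO was 0.11. Pcna, the sliding clamp of DNA polymerases, stood at 11.17, 11.13 and 11.19. Its sign against WT depended on the scaling in both knockout libraries, and its second probe set gave 0.43 in AireKO where the brighter one gave -0.02.

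Mki67, the proliferation antigen that coats mitotic chromosomes, had 9.10 in AireKO, 9.66 in Sirt1cKO and 9.17 in WT. It was higher in Sirt1cKO than in WT by 0.50, ranging to 0.61, while AireKO differed from WT by -0.07, with a sign that depended on the scaling. In bulk samples, fewer cells of a type and less RNA per cell cannot be told apart. The mitotic cyclins and their kinase had the same order of Sirt1cKO over WT. Cdk1, the kinase that starts mitosis, stood at 9.82 in AireKO, 10.11 in Sirt1cKO and 9.91 in WT. Ccna2, the cyclin of S and G2, stood at 9.36, 9.96 and 9.64. Ccnb2, a B-type mitotic cyclin, stood at 9.58, 10.08 and 9.53. Their Sirt1cKO differences were 0.20, 0.32 and 0.54, each positive under every scaling. In AireKO the Ccnb2 difference was 0.04, and the signs of Cdk1 and Ccna2 changed with the scaling.

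The spindle and kinetochore genes held the largest increases. Nusap1, a protein that bundles spindle microtubules around chromosomes, had 9.55 in AireKO, 9.44 in Sirt1cKO and 8.71 in WT. Both knockout libraries were above WT, by 0.84 in AireKO, ranging to 1.14 over scalings, and by 0.74 in Sirt1cKO. Kif11, the motor that separates the spindle poles, had 8.47, 9.04 and 8.45, and was higher in Sirt1cKO by 0.60. Cenpe, a kinetochore motor, had 6.90, 7.18 and 6.46, and its differences were 0.43 and 0.72. It did not pass the filter and lay near background in AireKO. Those 3 genes were above WT in both knockout libraries under every scaling. Cenpf, a kinetochore protein, had 7.33, 7.33 and 7.20, Kif20a, a cytokinesis motor, had 7.71, 7.79 and 7.76, and both lay within 0.15 of WT on the deposited scale. Prc1, which bundles the midzone of the anaphase spindle, had 6.64, within background, 6.74 and 7.06, and was lower than WT in Sirt1cKO by -0.32.

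The mitotic kinases and checkpoint genes were mixed. Bub1, a checkpoint kinase, stood at 7.73 in AireKO, 8.0 in Sirt1cKO and 7.66 in WT, and its partner Bub1b at 7.57, 7.24 and 7.60. In Sirt1cKO the first was higher by 0.35 and the second lower by -0.36. Aurka, the spindle pole kinase, stood at 7.69, 7.84 and 8.10, lower in both knockout libraries under every scaling. Aurkb, the kinase of the chromosomal passenger complex, stood at 8.04, 8.16 and 8.25 and changed sign with the scaling in both. Plk1, which acts at mitotic entry, at spindle poles and in cytokinesis, stood at 8.10, 8.61 and 8.51, lower in AireKO by -0.41. Birc5, the survivin subunit of the passenger complex, stood at 6.53, within background, 6.57 and 6.40.

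Of the mitotic exit genes, Ube2c, a ubiquitin-conjugating enzyme of the anaphase-promoting complex, had 8.54 in AireKO, 8.92 in Sirt1cKO and 8.37 in WT, higher in Sirt1cKO by 0.54. Cdc20, the activator of that complex, had 7.31, 7.46 and 7.64, lower in both knockout libraries. The transcription factors were dim. Foxm1, which drives mitotic genes, had 6.85, within background, 6.79 and 7.02, and E2f1, which drives replication genes, had 6.81, within background, 6.86 and 7.01. Neither passed the filter, and both were lower than WT in Sirt1cKO under every scaling, by -0.23 and -0.15.

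**Figure D3:**
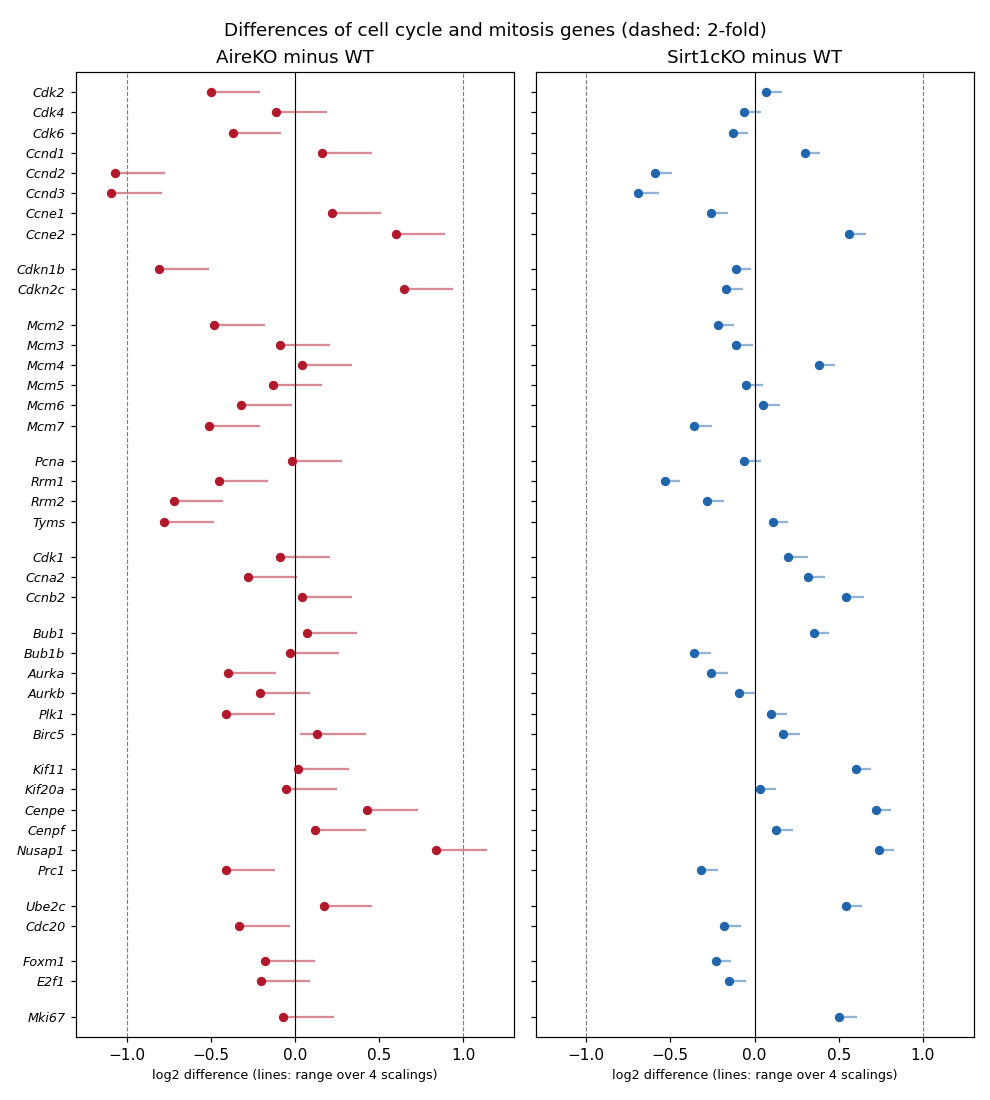
Log2 difference from WT (horizontal axis) of the 40 cell cycle and mitosis genes in AireKO (left) and Sirt1cKO (right). Points show the deposited values, lines the range over 4 scalings and dashed lines a 2-fold difference; in AireKO, Ccnd2 and Ccnd3 lie beyond the lower dashed line at their points only, and Nusap1 reaches 1.14 at the end of its line.

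Grouped by phase, the members of G2 and mitosis had a median Sirt1cKO difference of 0.20 over 15 measured genes, of which 4 were below WT, or 26.7%, where 59.6% of all measured genes were. The 19 measured members of G1 and S phase, CDK inhibitors included, had a median of -0.11, of which 13, or 68.4%, were below WT, near the share of all genes. After loess these medians were 0.27 and -0.04. In AireKO the same groups had medians of -0.05 and -0.37, or 0.16 and -0.11 after loess. There 60.0% and 73.7% of them were below WT, near the 67.7% of all measured genes. The median of the mitotic members therefore lay above that of the G1 and S members in both comparisons, which share the WT library. No test of that gap was made.

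Mitotic promoters often carry CCAAT boxes, bound by NF-Y, and a cell cycle homology region, bound by the MuvB core. The bases before the starts of Cdk1, Ccnb2, Mki67 and Ube2c are shown from RefSeq on GRCm38.p6 as examples of such promoters. They were chosen after their values and letters were seen, all 4 hold the homology region letters, and none was 2-fold higher in Sirt1cKO. Capitals mark CCAAT for the NF-Y box, TTTGAA for the homology region, and the E2F cores TTTCCCGC, TTTCGCGC, TTTGCCGC and TTTGGCGC, on either strand. The windows are chr10:69352913-69353112, chr9:70421555-70421754 and chr7:135716451-135716629 on the minus strand, and chr2:164769729-164769928 on the plus strand.
Cdk1: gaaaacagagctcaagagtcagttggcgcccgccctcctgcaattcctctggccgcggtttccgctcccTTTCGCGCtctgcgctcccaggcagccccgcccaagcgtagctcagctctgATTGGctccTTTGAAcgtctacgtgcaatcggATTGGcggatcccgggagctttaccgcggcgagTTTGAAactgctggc
Ccnb2: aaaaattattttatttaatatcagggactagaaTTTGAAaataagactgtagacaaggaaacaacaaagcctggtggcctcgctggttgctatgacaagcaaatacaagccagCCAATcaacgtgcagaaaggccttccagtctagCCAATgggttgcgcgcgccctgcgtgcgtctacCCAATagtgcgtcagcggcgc
Mki67: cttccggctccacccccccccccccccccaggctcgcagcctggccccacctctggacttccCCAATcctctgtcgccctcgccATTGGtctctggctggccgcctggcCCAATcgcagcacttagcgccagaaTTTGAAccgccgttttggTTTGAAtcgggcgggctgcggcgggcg
Ube2c: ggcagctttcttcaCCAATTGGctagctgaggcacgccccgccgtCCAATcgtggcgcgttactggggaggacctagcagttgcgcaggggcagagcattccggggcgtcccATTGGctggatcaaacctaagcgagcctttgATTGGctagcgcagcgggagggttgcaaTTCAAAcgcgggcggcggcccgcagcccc
In the 250 bases before the start, CCAAT occurred in 24 of the 34 members with a promoter in the table, or 70.6%, against 36.5% of 17492 protein-coding promoters. The homology region letters occurred in 7 members, or 20.6%, against 15.1%, and an E2F core in 5 members, or 14.7%, against 2.43%. Of the 7 members that hold the homology region letters, Kif11 differed from WT in Sirt1cKO by 0.60, Ccnb2 and Ube2c by 0.54 and Mki67 by 0.50. Cdk1 differed by 0.20, Cdc20 by -0.18 and Mcm2 by -0.22. Nusap1 and Cenpe, with the largest increases among the mitotic members at 0.74 and 0.72, hold none in their windows. Whether the letters go with the differences was not tested. The Nusap1 window overlaps the gene Oip5 and is not printed. A match of letters is a description and not a binding site.

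Set against each other, the knockout libraries compare without the WT library. No measured member differed by 2-fold between AireKO and Sirt1cKO, where 3.02% of all measured genes were lower and 0.851% higher. At 1.5-fold, 3 members were lower in AireKO, which were Tyms at -0.89, Cdkn1b at -0.69 and Ccna2 at -0.60. That is 8.82% of the members, against 13.1% of all measured genes. The 1 member higher in AireKO was Cdkn2c, at 0.82, ranging to 1.02, which is 2.94% against 3.51%. After loess 1 was lower, Tyms at -0.75, and 2 were higher, Cdkn2c at 0.97 and Ccne1 at 0.60. That is 2.94% and 5.88% of the members, against 7.41% and 6.27% of all measured genes. Cdkn1b at -0.50 and Ccna2 at -0.41 no longer passed. Mki67, Kif11 and the S phase kinase gene Cdk2 were each lower in AireKO by -0.57, Plk1 by -0.51 and Ccnb2 by -0.50, all under every scaling. The checkpoint gene Bub1b went the other way, by 0.32, also under every scaling. The members' median was -0.25, or -0.09 after loess, beside -0.15 for all measured genes on the deposited scale. Of the 40 members, 13 changed sign with the scaling in this pair, a count not made over all genes.

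Other genes of the pathway were read from 6 further lists. Their counts at 2-fold stand beside 9.24% lower and 2.16% higher of all measured genes in AireKO, and 1.58% and 0.831% in Sirt1cKO. Their medians stand beside -0.24 in AireKO and -0.08 in Sirt1cKO for all measured genes, or -0.01 and 0.0 after loess. Among 18 measured genes of the G1/S replication list, 0 were 2-fold lower and 1 higher in AireKO, and 1 lower and 0 higher in Sirt1cKO. The higher one was Rfc4, a subunit of the replication factor C clamp loader, with 10.10 in AireKO, 9.58 in Sirt1cKO and 8.76 in WT. The lower one was Rfc2, a subunit of the same complex, with 7.08, 6.82 and 8.01. Tk1, the thymidine kinase gene, was higher in AireKO by 0.95, or 1.17 after loess. After loess 0 genes of the list were 2-fold lower and 2 higher in AireKO, against 5.11% and 4.14% of all measured genes. The list's medians were -0.20 in AireKO and -0.04 in Sirt1cKO, or 0.0 and 0.05 after loess. Among 31 measured genes of the G2/M list, 1 was lower and 1 higher in AireKO and none passed in Sirt1cKO. Racgap1, which acts in cytokinesis, stood at 7.21, 7.81 and 8.38, and Cks2, a small subunit of Cdk complexes, at 10.74, 10.57 and 9.71. After loess Racgap1 differed by -0.95 in AireKO, so that 0 genes of the list were 2-fold lower and 1 higher there. Top2a, the topoisomerase of chromosome condensation, was lower in AireKO by -0.87. The medians of that list were -0.12 in AireKO and 0.11 in Sirt1cKO, or 0.11 and 0.20 after loess.

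The Rb and DREAM list, the repressors and activators of the cell cycle waves, had 16 measured genes, none of them 2-fold apart from WT on the deposited scale, though Rbbp4 and Rb1 reached 1.03 in AireKO under another scaling. Rbbp4, a histone-binding subunit of MuvB, stood at 12.18, 11.98 and 11.44, and Rb1 at 10.74, 10.29 and 10.01. E2f3 was higher in both knockout libraries, by 0.69 and 0.66. The list's medians were 0.10 in AireKO and 0.11 in Sirt1cKO, or 0.33 and 0.20 after loess. The anaphase-promoting complex list had 14 measured genes and medians of -0.52 and -0.20, with 2 genes lower in AireKO, where 9.24% of all were, and 1 in Sirt1cKO, where 1.58% were. Cdc23 stood at 8.08, 8.73 and 9.19, Anapc2 at 7.71, 7.98 and 8.80 and Anapc13 at 9.24, 9.11 and 10.17, all of them subunits of the complex. After loess none of its genes was 2-fold lower in either library, and its medians were -0.23 in AireKO and -0.11 in Sirt1cKO.

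Of 3 measured further CDK inhibitors, 1 was 2-fold lower in AireKO, Cdkn2b, and a different 1 in Sirt1cKO, Cdkn1c. After loess none was 2-fold lower in either library. Cdkn2b, which encodes p15, had 8.32 in AireKO, 9.00 in Sirt1cKO and 9.36 in WT. Cdkn1c, which encodes p57, had 8.14, 8.06 and 9.07 and was lower in Sirt1cKO by -1.01. Cdkn2a, which encodes p16 and p19Arf, had 7.14, 7.45 and 7.78, and all 3 were below WT under every scaling. The p53 target list had 16 measured genes, and p53 itself is a known substrate of Sirt1. In AireKO 6 of the 16 were 2-fold lower and 0 higher, where 9.24% of all measured genes were lower. After loess 3 were, where 5.11% of all were, and the median was -0.76, or -0.55 after loess. In Sirt1cKO 2 were lower and 0 higher, with a median of -0.22, where 1.58% of all were lower. After loess 1 was lower there, and the median was -0.14. In each knockout library 12 of the 16 were below WT, where 67.7% of all measured genes were in AireKO and 59.6% in Sirt1cKO. The other 4, named after their values were seen, lay above WT. In AireKO these were Fas by 0.61, Ccng1 by 0.52, Sesn1 by 0.28 and Mdm2 by 0.03, and in Sirt1cKO Plk2 by 0.42, Sesn1 by 0.38, Btg2 by 0.35 and Ccng1 by 0.29.

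Phlda3, a p53-induced inhibitor of Akt, had 7.85 in AireKO, 8.95 in Sirt1cKO and 10.06 in WT, so it was lowest in AireKO and between the others in Sirt1cKO. Gadd45b, a stress gene also driven by NF-kB, had 10.14, 10.72 and 11.76. Plk3, a stress-responsive kinase, had 7.41, 8.15 and 8.74. Those genes kept a 2-fold decrease in AireKO under every scaling, with Phlda3 at -2.21, ranging to -1.92. Pmaip1, which encodes Noxa, was lower by -1.11 in AireKO and -0.93 in Sirt1cKO, while Sesn2 and Perp were lower in AireKO by -1.17 and -1.15. Their Sirt1cKO differences were -0.24 and -0.03.

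**Figure D4:**
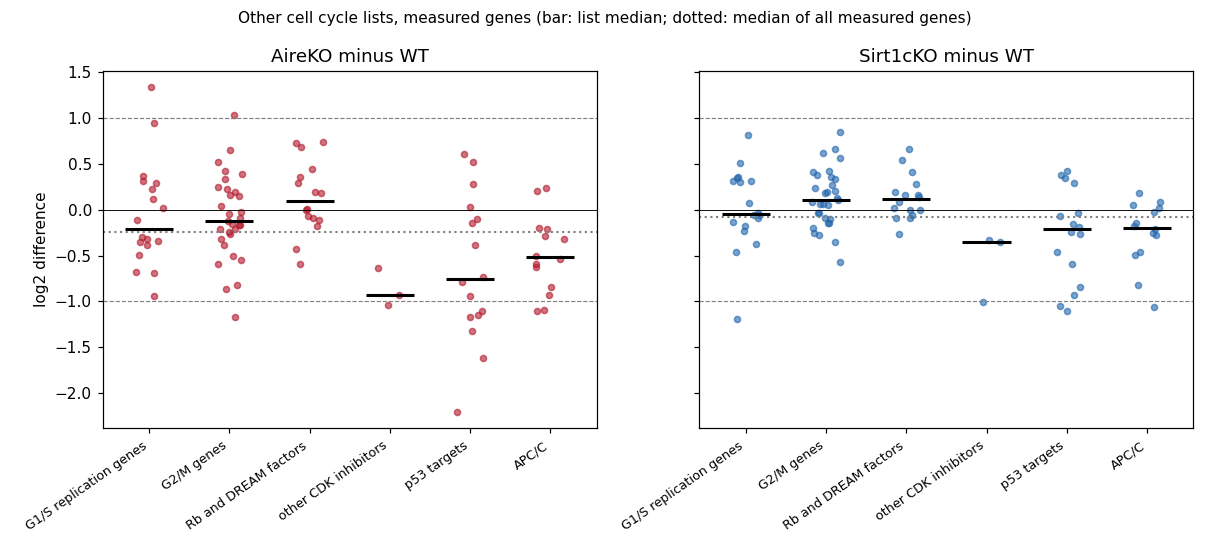
Log2 difference from WT (vertical axis) of each measured gene in 6 further cell cycle lists, in AireKO (left) and Sirt1cKO (right), with list medians as bars and the median of all measured genes as a dotted line. The p53 targets reach -2.21 in AireKO and -1.11 in Sirt1cKO.

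Markers of other cells of the thymus moved between the libraries too. Of 11 thymocyte markers on the array, 5 were above background in AireKO, 7 in Sirt1cKO and 7 in WT, and their summed linear intensity was 1793, 1710 and 1438 in that order. Rag2, Ptcra, Dntt and Cd3d were within background in all 3 libraries. Of the 5 thymocyte markers that passed the filter, 3 lay above WT and 2 below it in each knockout library. Cd8b1 stood at 8.58 in AireKO, 8.65 in Sirt1cKO and 7.82 in WT, and Cd8a at 7.65, 7.68 and 7.29. Cd4 ran the other way, at 7.48, 7.36 and 7.66. The 6 myeloid and dendritic markers summed to 2274 in AireKO, 3017 in Sirt1cKO and 4894 in WT, of which 3, 6 and 6 were above background. Most of that sum was Lyz2, with 1731, 2456 and 4261, and the other 5 summed to 543, 561 and 634. The 5 cortical epithelial markers summed to 6759, 7177 and 8203, with 4, 5 and 5 above background, and the 3 B cell markers to 270, 212 and 209, with 1, 1 and 2 above it. Fibroblast markers summed to 480, 404 and 476 and endothelial markers to 295, 235 and 245. The mature medullary markers summed to 35189, 37111 and 44822. In each knockout library 8 of the 10 were below WT, where 67.7% of all measured genes were in AireKO and 59.6% in Sirt1cKO. Those above WT were Cd80 and Cd86 in AireKO, by 0.76 and 0.70, and Cd80 and Cd74 in Sirt1cKO, by 0.36 and 0.02. The markers summed include Aire itself and the bright H2-Aa, which stood at a log2 of 13.05, 13.04 and 13.70. Ccl25 made up most of the cortical sum, with 5643, 5648 and 5897. The myeloid, cortical and medullary sums ran in the same order as Ccnd2, Ccnd3 and Phlda3, with WT highest. The thymocyte and B cell sums ran in the order of Nusap1 and Ccne2, with WT lowest. In the thymocyte sum AireKO stood above Sirt1cKO through Thy1, with 424, 287 and 288. The other 10 thymocyte markers summed to 1369, 1423 and 1149, with Sirt1cKO highest. The B cell sums of Sirt1cKO and WT were close, at 212 and 209, and Cd79a was within background in all 3 libraries. The part of these cells in those results was not tested.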

How the data were processed

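RNA of sorted cells was amplified and hybridised to Affymetrix Mouse Gene 1-ST arrays, per the series' design text. The authors deposited linear intensities of probe sets. Per the submitters' processing notes they used RMA, and neither its software and version nor the return to linear values is given in the sources used here. Log2 was taken with no further normalization. The platform annotation listed 1 symbol for 21640 of 34760 probe sets, several for 1321 and none for 11799. Entrez identifiers of 99.6% of the first were in a RefSeq table of GRCm38.p6. The brightest probe set stood for a gene. Groups hold 1 library, so no test was run and differences of 2-fold were counted. There were 8 alternatives, 3 of them other scalings, loess with a span of 0.3. A median counted as moved past 0.1.

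The members and lists were chosen with earlier results of these data known. All members were named, and up to 6 genes of each further list, by their largest difference from WT. Promoters of the 6 members with the largest AireKO differences were to be shown. Those of Ccnd3 and Cdkn1b are printed. Ccnd2 had no promoter to match, and those of Nusap1, Tyms and Rrm2 are not printed. Promoters matched by symbol for 34 of 42 members, taking the most upstream start. The counting and scaling steps were tested on simulated data. The tools were statsmodels 0.14.6 for loess and pandas 2.3.3 in Python 3.11.15.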

Additional observations from a re-analysis of the deposited data

How the results depend on the processing

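Each genotype has 1 library, so no value has a replicate error, and the number of arrays and the background limit what dim genes such as Foxm1, E2f1 and Birc5 show. Scaling decided the AireKO counts against WT, which were 2 lower and 0 higher with a median of -0.12 on the deposited scale. They became 0 lower and 1 higher with medians of 0.11 after quantile normalization, 0.09 after loess and 0.18 after median centring, as the offset of all genes was removed. At 1.5-fold they were 5 and 3. With the AireKO and Sirt1cKO labels exchanged, the AireKO comparison had 0 lower and a median of -0.01, and the Sirt1cKO comparison 2 lower and a median of -0.12. The Sirt1cKO counts of 0 and 0 became 2 and 2 at 1.5-fold. Between the knockout libraries the median of -0.25 became -0.09 after quantile normalization, -0.09 after loess, -0.05 after median centring and 0.25 with labels exchanged. There the counts of 0 and 0 became 3 and 1 at 1.5-fold, and 1 member was 2-fold higher after median centring. The filter on the highest library, no filter, and the mean over probe sets moved none of these counts by over 1.5 times and no median by over 0.1. No member past 2-fold reversed its sign under the scalings, the mean over probe sets or the exchanged labels. No paired analysis was possible because each genotype has 1 library.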

Other observations

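Subunits of one complex did not share a direction in replication factor C, the clamp loader that places Pcna on DNA. Rfc4 differed from WT by 1.34 in AireKO and 0.82 in Sirt1cKO, and Rfc2 by -0.94 and -1.19. Rfc5 stood at 8.72 in AireKO, 9.15 in Sirt1cKO and 9.21 in WT, and Rfc3, which did not pass the filter and lay within background in AireKO, at 6.60, 7.03 and 7.10. Rfc3 and Rfc5 were named here after their values were seen.

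Cks2 was higher in both knockout libraries, by 1.03 and 0.85, while its paralogue Cks1b stood at 9.20 in AireKO, 9.23 in Sirt1cKO and 9.37 in WT, with an AireKO difference of -0.17 that ranged to 0.13 over scalings. Mad2l1, a spindle checkpoint gene, was higher by 0.65 and 0.42, and the checkpoint gene Bub1b differed by -0.03 in AireKO, with a sign that depended on the scaling, and by -0.36 in Sirt1cKO. Cks1b was also named after its values were seen.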
